A study of Mus musculus with 4 samples.

Results

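Tubulin transcripts of mouse liver were described on 4 Affymetrix gene arrays. The 10 listed genes encode alpha tubulins (Tuba1a, Tuba1b, Tuba1c, Tuba4a and Tuba8) and beta tubulins (Tubb2a, Tubb2b, Tubb4b, Tubb5 and Tubb6). They were chosen by symbol from earlier results on these same values, in which Tubb2a stood among the lowest genes on high-fat diet, so their values on these arrays are a description with no test. Each gene was read from the probe set annotated to that symbol alone, taking the one with the highest mean over the 4 arrays. This found 9 of the 10 genes among 22180 genes in all. Tuba4a was on the array only in a probe set annotated to Stk16 as well, which was not attributed to either gene. After genes with a mean log2 value under 3.47 were left out as dim, 6 of the 9 were among the 13308 that remained: Tubb2a, Tubb2b, Tubb5, Tubb6, Tuba1a and Tuba1c.

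All mice were C57Bl6, 16 weeks old, and carried floxed Myd88 (MyD88 lox/lox). The knockout mice also carried Cre under the albumin promoter (ALB Cre), which acts in hepatocytes, so other liver cells keep the gene. The fat content was 9.4% in the control diet and 60% in the high-fat diet, and each genotype was fed one or the other. RNA of 4 to 5 mice was pooled for each of the 4 arrays, so a group is 1 array and the spread between mice was not measured. The study asked how a high-fat diet and loss of Myd88, an adaptor of Toll-like and interleukin-1 receptors, alter liver transcripts.

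Alpha and beta tubulin pair into dimers that build microtubules. In hepatocytes microtubules carry secretory vesicles, including those with lipoproteins and plasma proteins, and organise the Golgi and the bile canalicular pole. Cells also adjust tubulin messenger RNA to the pool of free dimers: when free tubulin rises, the factor TTC5 recognises the start of the tubulin chain on the ribosome and the message is degraded.

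The genes are not spread evenly in the genome. Tubb2a and Tubb2b both lie on chromosome 13 in RefSeq, and Tuba1a, Tuba1b and Tuba1c all lie on chromosome 15. Coding sequences of tubulin isotypes are close to one another, so array probes can bind several of them, and the values of single isotypes are uncertain for that reason. Upstream sequence from the RefSeq promoter table (GRCm38.p6) was searched for 8 of the 10 genes. Tubb2b and Tubb6 were not among the genes searched, so nothing is said of their promoters. The 250 bases before the start site are shown for the 3 members with the lowest mean diet difference, 5′ to 3′ on the strand of the gene. Capitals mark matches on either strand to a TATA box (TATAAA), a cAMP response element (TGACGTCA) or a CCAAT box.
Tubb2a (chr13:34078009-34078258, minus strand): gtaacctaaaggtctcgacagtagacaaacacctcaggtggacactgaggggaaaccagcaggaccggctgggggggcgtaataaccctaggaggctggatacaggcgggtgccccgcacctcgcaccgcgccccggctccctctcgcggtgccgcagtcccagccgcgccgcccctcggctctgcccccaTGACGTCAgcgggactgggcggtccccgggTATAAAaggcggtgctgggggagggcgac
Tubb5 (chr17:35838302-35838551, minus strand): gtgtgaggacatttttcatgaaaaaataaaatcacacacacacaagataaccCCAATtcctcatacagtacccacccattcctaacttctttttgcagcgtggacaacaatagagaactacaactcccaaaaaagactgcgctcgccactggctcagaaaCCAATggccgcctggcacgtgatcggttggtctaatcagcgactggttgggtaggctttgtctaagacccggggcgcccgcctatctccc
Tuba1c (chr15:99029641-99029890, plus strand): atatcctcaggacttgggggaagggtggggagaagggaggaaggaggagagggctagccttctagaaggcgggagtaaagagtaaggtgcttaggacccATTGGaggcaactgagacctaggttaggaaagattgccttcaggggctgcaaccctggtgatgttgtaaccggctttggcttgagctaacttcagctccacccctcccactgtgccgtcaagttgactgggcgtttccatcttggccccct

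The Tubb2a sequence held a TATA box from -29 to -24 and a cAMP response element from -59 to -52, counted back from the start site. Of all 32851 promoters of that length, 12.4% held TATAAA and 1.55% held TGACGTCA on either strand, and among the 8 tubulin promoters Tubb2a held both and the other 7 held neither. CCAAT was present upstream of Tuba1a, Tuba1c, Tubb4b and Tubb5, against 33.8% of all promoters. In Tubb5 it began at -198 and at -90, and in Tuba1c its complement began at -151. The other motifs searched on both strands were the GC box GGGCGG (5 of 8 tubulin promoters and 32.7% of all, Tubb2a among the 5), the E-box CACGTG (Tuba8 and Tubb5, 6.02% of all), the heat shock core GAANNTTC (0 of 8, 6.69% of all) and the D-box TTATGTAA (0 of 8, 0.819% of all). No matches overlapped in the 3 sequences shown. These are letter matches and were not tested as binding sites.

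Facts of the whole series bear on these values. The deposited values are on a log2 scale with array medians between 3.53 and 3.56, and the arrays correlated over all probe sets at a Pearson r of 0.985 to 0.990. Myd88 itself read 6.10 (wild type) and 5.91 (knockout) on control diet, and 6.44 and 6.23 on high-fat diet. Whether its probes lie in the deleted part was not analysed here, so this is no check of the deletion. The hepatocyte markers, of which 9 of 10 were measured, had a mean log2 value between 11.15 and 11.19 on each array. In bulk liver RNA, fewer cells of a type and less RNA per cell cannot be told apart.

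The first question was how tubulin transcripts differed with diet. Tubb2a, a class II beta tubulin best known from neurons, had the lowest diet difference of the members in both genotypes. Its log2 value was 7.24 on the wild-type control array, 6.77 on the knockout control array, 4.84 on wild-type high-fat and 5.46 on knockout high-fat. Both control arrays were above both high-fat arrays. High-fat minus control was -2.40 in wild type and -1.31 in knockout, which is 5.29-fold and 2.48-fold lower. Among the 13308 genes this was the 5th lowest diet difference in wild type and the 15th lowest in knockout. For genes within 0.5 log2 of its mean value, the central 95% of diet differences ran from -0.72 to 0.55 in wild type and from -0.60 to 0.67 in knockout, so both values of Tubb2a lay outside that spread. An additive limma fit over all 4 arrays gave a diet effect of -1.86 (SE 0.26). Its error comes from the gap between the diet differences of wild type and knockout, moderated over all genes.

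Tubb5, the widely expressed class I beta tubulin, had smaller diet differences of the same sign. On control diet it read 8.25 (wild type) and 7.93 (knockout), and on high-fat diet 7.59 and 7.51. Again both control arrays were above both high-fat arrays. The diet difference was -0.65 in wild type, just outside the central 95% of genes of a like value (-0.62 to 0.51), and -0.42 in knockout, inside it (-0.58 to 0.61). Its diet effect in the additive fit was -0.54 (SE 0.13). A second Tubb5 probe set (17548000) with a lower mean gave -0.37 in wild type and -0.56 in knockout.

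Tuba1c, an alpha tubulin of many tissues, read 6.27 and 5.87 on control diet in wild type and knockout, and 5.75 and 5.62 on high-fat diet. Its diet difference was -0.52 in wild type and -0.25 in knockout, both inside the central 95% of genes of a like value. A second probe set (17321481) gave -0.46 and -0.44. The diet effect in the additive fit was -0.39 (SE 0.13).

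**Figure D1:**
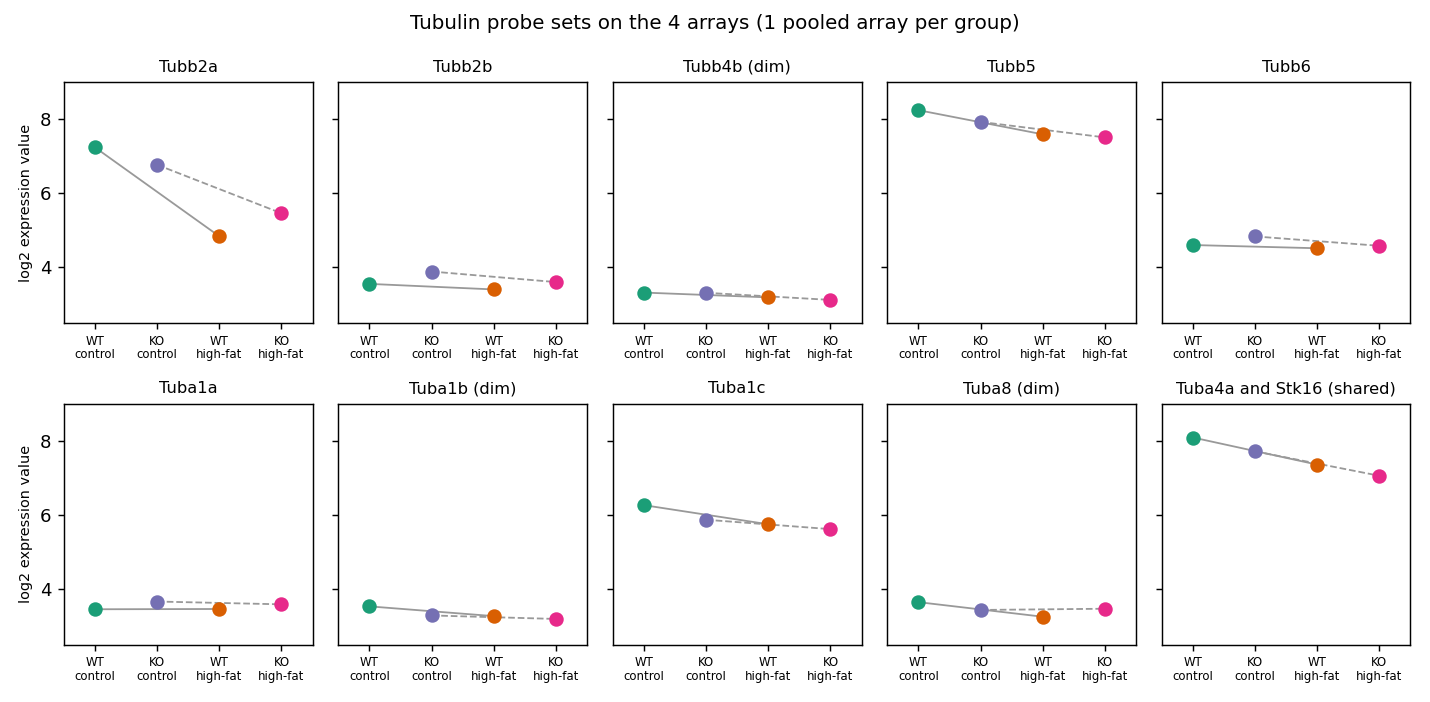
Log2 expression value of 9 tubulin genes and of the probe set shared by Tuba4a and Stk16 on the 4 arrays, 1 point per pooled array. Solid grey lines join the wild-type arrays and dashed lines the knockout arrays; "dim" marks genes under the filter of 3.47. Tubb2a reads 7.24 against 4.84 in the wild-type pair and 6.77 against 5.46 in the knockout pair, and the dim genes lie between 3.12 and 3.65.

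The remaining beta tubulins differed less. Tubb6, the class V isotype, read 4.60 (wild type) and 4.84 (knockout) on control diet, and 4.52 and 4.58 on high-fat diet. Its diet differences were -0.09 and -0.25. Tubb2b, the close relative of Tubb2a, read 3.55, 3.89, 3.40 and 3.60 on the wild-type control, knockout control, wild-type high-fat and knockout high-fat arrays. Its diet differences were -0.15 and -0.29, close to the dim end of the array, where RMA compresses differences. Both genes lay inside the central 95% of genes of a like value in each genotype. Tubb4b, a class IV isotype, was under the filter with values between 3.12 and 3.32.

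Among the other alpha tubulins, Tuba1a, the main alpha tubulin of developing neurons, read 3.46 and 3.66 on control diet in wild type and knockout, and 3.46 and 3.59 on high-fat diet. Its diet difference was 0.01 in wild type, where the sign changed to -0.01 after cyclic loess normalisation, and -0.08 in knockout. Tuba1b read between 3.19 and 3.53, and Tuba8, a divergent isotype of muscle and testis, between 3.25 and 3.65. Both were under the filter, so their differences are of dim probe sets. In wild type and knockout these were -0.26 and -0.09 for Tuba1b and -0.39 and 0.03 for Tuba8. A second Tuba1b probe set, shared with another gene, gave -0.57 and -0.38. Second probe sets of Tuba1a and Tuba8 gave 0.13 and -0.06, and 0.01 and -0.003.

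The probe set shared by Tuba4a and Stk16 (17224540) read 8.10 (wild type) and 7.72 (knockout) on control diet, and 7.36 and 7.06 on high-fat diet. Its diet difference was -0.73 in wild type and -0.66 in knockout. Stk16, a protein kinase gene, also had a probe set of its own, which stayed between 5.89 and 6.02 on the 4 arrays, with diet differences of -0.02 and -0.06. The shared values cannot be assigned to either gene.

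Counted together, the diet difference was below 0 for 5 of the 6 members in wild type and for 6 of 6 in knockout, beside 55.0% and 47.7% of all genes. After cyclic loess it was 6 of 6 in each. The median member difference was -0.33 in wild type and -0.27 in knockout, beside medians over all genes of -0.03 and 0.01. In both genotypes at once 5 of the 6 were lower and 0 higher, whereas 29.0% of all genes were lower in both and 26.1% higher in both. At 2-fold or more, 1 member (Tubb2a) was lower in wild type, beside 0.564% of all genes, and the same 1 in knockout, beside 0.286%. At 2-fold in both genotypes the share of all genes was 0.0751%. No member reached 2-fold in the higher direction, beside 0.488% of genes in wild type and 0.323% in knockout. Tubb2a helped to choose the members, so nothing is read from these counts.

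All 16 probe sets annotated to a listed tubulin, dim and shared ones included, were also counted. High-fat values were lower in both genotypes for 11 of them and higher in both for 1, against 26.0% and 26.9% of all 41345 probe sets. Several of the 16 belong to 1 gene and may bind the same transcripts, so they are not independent.

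**Figure D2:**
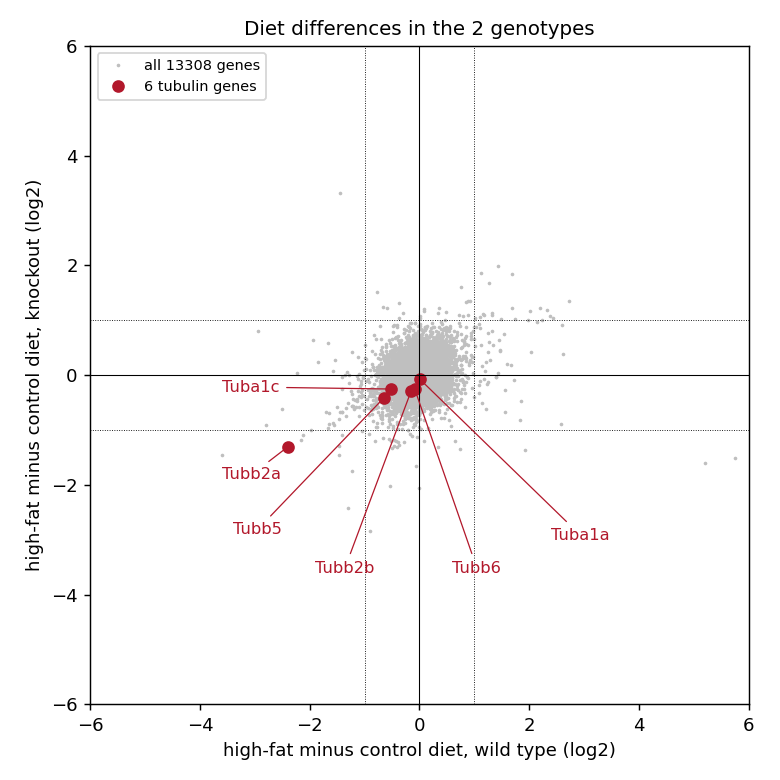
High-fat minus control diet (log2) in wild type on the horizontal axis and in knockout on the vertical axis, for 13308 genes (grey) and the 6 tubulin genes (red); dotted lines mark 2-fold. Tubb2a lies at -2.40 and -1.31, outside the dotted lines on both axes, and the other 5 lie within them.

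Transcripts of the exocrine pancreas differed between the pools in the same comparison. All 7 measured pancreas markers, of 9 listed, were higher on high-fat diet, with median differences of 2.19 in wild type and 1.16 in knockout. Their mean log2 value was 5.86 on the wild-type control array, 8.13 on the knockout control array, 8.03 on wild-type high-fat and 9.24 on knockout high-fat. Tubb2a read 7.24, 6.77, 4.84 and 5.46 on these arrays in the same order. The 6 measured skeletal muscle markers, of 9, were highest on the wild-type high-fat array, with a mean of 5.03 against 3.76 to 4.01 on the others. Of 10 endothelial markers, 8 had a diet difference below 0 in wild type and 5 in knockout, beside 55.0% and 47.7% of all genes. The endothelial medians were -0.26 and -0.01, and the endothelial mean ranged from 7.44 to 7.65. The part of these cells in the tubulin values was not tested.

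For the other marker lists mainly the range of the means over the 4 arrays is given. Proliferation markers, which go with tubulin demand for the spindle, passed the filter for 6 of 15 genes and had means of 3.65 to 3.70, and Mki67 read 3.66 to 3.81. The means ran from 5.67 to 5.80 for 11 of 12 stellate cell and fibroblast markers and from 7.33 to 7.59 for 7 of 10 macrophage markers. They ran from 4.00 to 4.14 for 5 of 10 lymphocyte markers, from 3.74 to 3.87 for 3 of 8 cholangiocyte markers and from 3.89 to 4.02 for 3 of 6 platelet markers. The macrophage mean was highest on the wild-type control array, at 7.59. Of the 7 macrophage markers, 5 had a diet difference below 0 in wild type and 4 in knockout, beside 55.0% and 47.7% of all genes. The macrophage medians were -0.07 and -0.06. The part of macrophages in the tubulin values was not tested. Of 7 neuron and glia markers only Syt1 passed, with diet differences of 0.70 and 0.30. The 3 measured Y-linked genes had means of 6.35 to 7.07.

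The next question was how the knockout differed from wild type. On control diet the 3 members with the lowest mean diet differences also read lower in knockout: Tubb2a by -0.47, Tuba1c by -0.39 and Tubb5 by -0.32. In this comparison the second Tubb5 probe set gave 0.02, so the Tubb5 difference depends on the probe set. The second Tuba1c probe set gave -0.30. This comparison and the diet difference in wild type share the wild-type control array, so the values are set side by side and are not independent. Tubb2b was higher in knockout by 0.33, Tubb6 by 0.23 and Tuba1a by 0.21. Second probe sets gave -0.19 for Tubb2b, opposite in sign, and 0.06 for Tuba1a. The median over the 6 members was -0.05, beside -0.02 over all genes, and it moved with the choice of probe sets kept. No member reached 2-fold, beside 0.158% of all genes that were lower and 0.346% that were higher.

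On high-fat diet the order of the genotypes in Tubb2a was the opposite one, with knockout above wild type by 0.62. Tubb5 was lower in knockout by -0.08 and Tuba1c by -0.13. The other 3 members were higher by 0.07 (Tubb6), 0.13 (Tuba1a) and 0.20 (Tubb2b). The member median was 0.10, beside 0.02 over all genes, and its sign changed under some alternatives. None was at 2-fold, beside 0.165% of genes lower and 0.225% higher. In the additive fit the genotype effects were 0.08 (SE 0.26) for Tubb2a, -0.20 (SE 0.13) for Tubb5 and -0.26 (SE 0.13) for Tuba1c.

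The design also compares the diet response between genotypes. For Tubb2a the knockout diet difference minus the wild-type one was 1.09, since the decrease was smaller in knockout, and this was the 61st highest value among 13308 genes. It was 0.26 for Tuba1c, 0.23 for Tubb5, -0.08 for Tuba1a, -0.14 for Tubb2b and -0.17 for Tubb6, all inside the central 95% of genes of a like value. Second probe sets gave 0.02 for Tuba1c, -0.19 for Tubb5, -0.20 for Tuba1a and 0.07 for Tubb2b. The sign for Tubb5 and Tubb2b thus depends on the probe set. Only 1 array stands behind each term, so the difference has no replicate check.

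Genes with a profile like that of Tubb2a were sought by the smallest Euclidean distance between log2 values over the 4 arrays, each gene centred on its own mean. The nearest was Me1, the malic enzyme that supplies NADPH for fatty acid synthesis, at a distance of 0.25. Its diet differences were -2.13 in wild type and -1.10 in knockout, and its genotype differences were -0.44 on control and 0.58 on high-fat diet. Then came Arntl, the clock activator, at 0.39, with diet differences of -1.97 and -0.997. Cyp4a14, a fatty acid omega-hydroxylase, followed at 0.46 with -2.80 and -0.91, the microRNA gene Mir1933 at 0.58 with -1.67 and -0.97, and Fgf21, a liver hormone, at 0.61 with -2.16 and -1.19. All 5 were highest on the wild-type control array, and 4 of them lowest on the wild-type high-fat array, as Tubb2a was. Fgf21 was the exception, at 5.16 and 5.14 on the high-fat arrays. Of the tubulins Tubb5 was the nearest, in place 156 at a distance of 1.42, and Tuba1c was in place 453. The 5 genes were chosen by distance over the same 4 arrays, so their shared highest and lowest arrays follow largely from that choice. A likeness over 4 arrays is a description only.

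**Figure D3:**
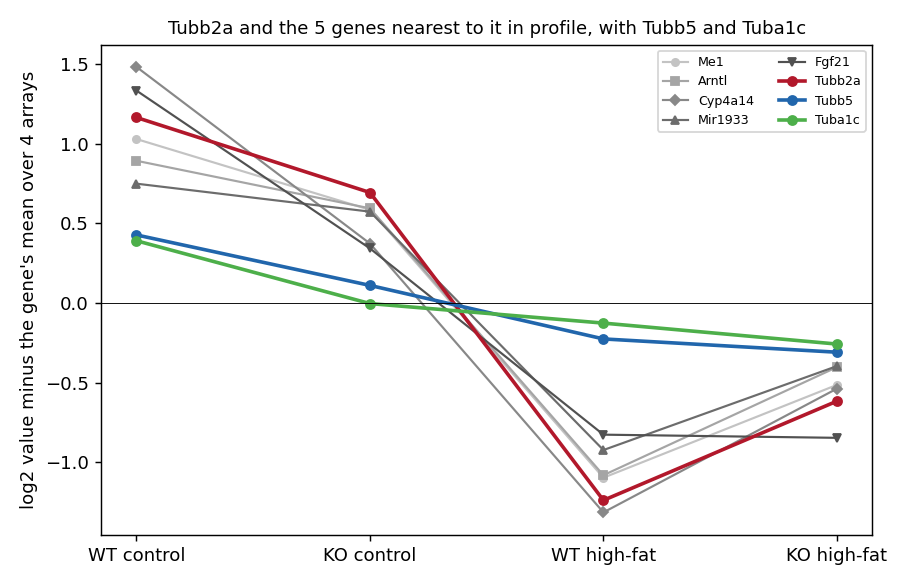
Log2 value minus each gene's mean over the 4 arrays, for Tubb2a, the 5 genes nearest to it (grey), Tubb5 and Tuba1c; 1 point per array. Me1 lies closest to Tubb2a at a distance of 0.25, and Tubb5 and Tuba1c span less of the axis.

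The last comparison set the tubulins beside the genes that fold, modify and use them. Of 94 measured genes in the lists of other tubulins, tubulin folding, tubulin mRNA autoregulation, tubulin modification, microtubule dynamics, motors, actin and intermediate filaments, 54 had a diet difference below 0 and 40 above 0 in wild type, and 49 were below and 45 above in knockout. Over all genes 55.0% were below 0 in wild type and 47.7% in knockout, and the counts by list that follow stand beside the same shares. The medians of the 94 were -0.03 and -0.01. None was at 2-fold in any of the 4 comparisons between arrays. The limma fit called 0 of the 94 for diet at a Benjamini-Hochberg adjusted p of 0.05, with a smallest adjusted p of 0.366, and 7 had an unadjusted p under 0.05, of which 3 were higher and 4 lower. Over all 13308 genes the fit called 0 and 1238 had an unadjusted p under 0.05. For genotype it called 0 of the 94, and 5 had an unadjusted p under 0.05, 1 higher and 4 lower. Over all 13308 genes limma called 0 for genotype, and 567 had an unadjusted p under 0.05, 318 higher and 249 lower.

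Among the other tubulins, Tubb4a of brain was -0.15 in wild type and -0.32 in knockout for diet. Tubg1, the gamma tubulin that starts new microtubules, had diet differences of -0.09 and -0.08 and read lower in knockout by -0.36 on control diet and by -0.35 on high-fat diet. Tubd1, the delta tubulin of centrioles, had diet differences of -0.14 and 0.13. Tubb1, Tubb3, Tubal3, Tubg2 and Tube1 were under the filter, and Tuba3a and Tuba3b shared their probe sets.

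The folding list holds the chaperonin CCT, prefoldin and the tubulin cofactors. Of its 19 measured genes 11 in wild type and 10 in knockout were lower, and the medians were -0.02 and -0.01. Cct4 differed by -0.22 and -0.33, the cofactor gene Tbcb by -0.22 and -0.20, and Tbcel by -0.14 and -0.28, while the prefoldin gene Pfdn2 was higher by 0.36 and 0.58. Of the 5 measured genes of tubulin mRNA autoregulation, 2 were lower and 3 higher in each genotype. Scaper, whose product links TTC5 to a deadenylase, had diet differences of 0.20 and 0.87. Cnot11, a subunit of that deadenylase, had 0.14 and 0.15. Cnot7 differed by 0.06 and 0.15, and Cnot10 by -0.05 and -0.20.

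Of 15 modifying enzymes 8 and 7 were lower. Svbp, the partner of the vasohibins that remove the terminal tyrosine of alpha tubulin, differed by -0.42 and -0.55, and Atat1, the alpha tubulin acetyltransferase, by -0.37 and -0.20. Ttl, the ligase that puts the tyrosine back, was higher by 0.12 and 0.32, and Agbl3 by 0.19 and 0.25. Of 21 genes of microtubule dynamics 12 and 10 were lower. Camsap3, which caps microtubule minus ends in epithelial cells, differed by -0.73 and -0.40, Mapre3 by -0.56 and -0.13, the severing subunit gene Katna1 by -0.28 and -0.30, and Ckap5 by 0.24 and 0.31.

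Of 17 motor genes 10 were lower in each genotype, among them the kinesin light chain gene Klc1 at -0.60 and -0.23 and Kif1c at -0.21 and -0.28. Kif5b, a kinesin heavy chain gene, was higher by 0.17 and 0.39. Of 14 actin and intermediate filament genes 8 were lower in each genotype, with medians of -0.04 and -0.02. Tpm4 differed by -0.50 and -0.30, Krt18 by -0.17 and -0.44, Actg1 by -0.32 and 0.03, and Lmnb1 by 0.57 and 0.22. None of the genes in these lists was as far from 0 in wild type as Tubb2a, whose value is -2.40 against a lowest of -0.73. Tubb2a had already stood among the lowest genes on high-fat diet when the members were chosen, so nothing is read from this contrast.

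**Figure D4:**
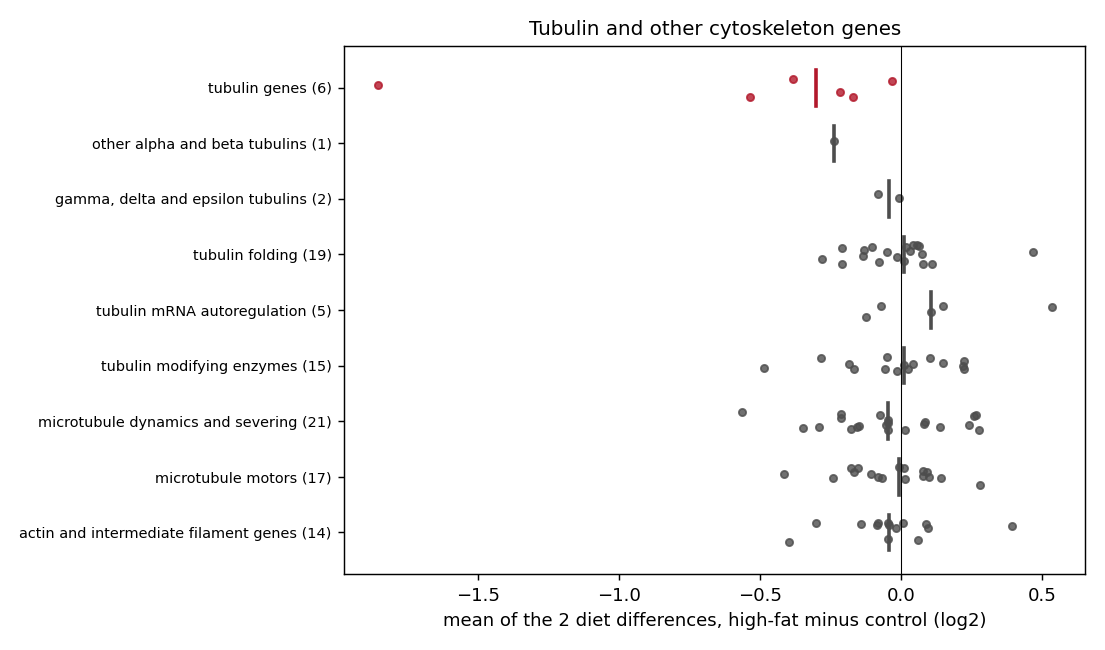
Mean of the wild-type and knockout diet differences (high-fat minus control, log2) for each measured gene of the tubulin members (red) and of 8 lists (grey), 1 point per gene; vertical bars are medians and the number of genes is in brackets. Tubb2a lies apart on the left at -1.86, and the lists of other genes lie around 0.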

How the data were processed

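Liver RNA of 4 groups of mice was measured, 1 array of pooled RNA each. The values are log2 expression as the authors deposited them. The submitters' processing notes name RMA and Affymetrix Expression Console, with no version given here. RMA subtracts background, equalises array distributions and summarises probes, which compresses differences of dim probe sets. Detection calls were not used here, so signal over background is unknown.

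Of 41345 probe sets, 23521 had 1 gene symbol in the platform annotation, 1814 several and 16010 none, and only the first were named. The highest mean over arrays chose among probe sets for 1082 genes. The 9 members found matched the RefSeq gene table (GRCm38.p6) by Entrez identifier, with 0 symbols changed. Genes under the 40th percentile of mean log2 value were left out. Groups came from the titles in the labels, and differences are subtractions between 2 arrays, with no p-value. Limma 3.58.1 in R 4.3.3 fitted genotype and diet as additive terms (1 residual degree of freedom, eBayes, Benjamini-Hochberg). The fit was run on simulated data with additive diet effects, which does not check it where the diet response differs by genotype. With no replicates, its error is the departure of the arrays from additive terms, moderated over genes. That mixes a difference in diet response with noise, so its p-values do not measure spread between mice or pools. None is given for members. Python 3.11.15, pandas 2.3.3, NumPy 2.4.6 and matplotlib 3.10.9 did the rest.

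Members and lists were chosen with earlier results of these data known. Text could name all tubulins, up to 4 genes per list with the largest mean diet difference, any listed gene at 2-fold, the 5 profiles nearest to Tubb2a, and Myd88. Stk16 was added after its values were seen. Alternatives were cyclic loess, median centring, the mean over probe sets, no filter, a 60th percentile filter, a 1.5-fold threshold, eBayes with a trend and, added after the data were examined, shared probe sets.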

Additional observations from a re-analysis of the deposited data

Results flagged for a closer look

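The genotype difference of Tubb2a had opposite signs on the 2 diets, -0.47 on control and 0.62 on high-fat diet, and these differ by 1.09. The diet difference of Tuba1a had opposite signs in the 2 genotypes, 0.01 and -0.08, which differ by -0.0831, and the sign in wild type changed after cyclic loess. With 1 array per group neither difference was tested.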

How the results depend on the processing

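At 1.5-fold, 2 members (Tubb2a and Tubb5) counted as lower for diet in wild type in place of 1, and 1 (Tubb2a) was higher in knockout on high-fat diet in place of 0. After cyclic loess Tubb2a fell just short of 2-fold in the difference of diet differences, at 0.99, so that count was 0 in place of 1, and limma called 70 genes for diet and 3 for genotype in place of 0, none of them among the 94 pathway genes; the cause was not tested. The other counts of members and of limma calls kept their main value within 1.5 times under each alternative run. Tubb2a ranged from -2.40 to -2.34 for diet in wild type and from -1.35 to -1.31 in knockout, Tubb5 from -0.65 to -0.51 and from -0.49 to -0.42, and Tuba1c from -0.52 to -0.46 and from -0.35 to -0.25. The member median for genotype on control diet was -0.36 with the 60th percentile filter, over 4 genes, and -0.32 with shared probe sets, over 7, and that on high-fat diet ranged from -0.03 to 0.10. Spread between mice, detection and probe overlap between isotypes limit these values, and 1 array per group allowed no replicate to be left out.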

Other observations

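The transcribed pseudogene Tubb2a-ps2 (probe set 17279991), chosen after its values were seen, was under the filter at 3.13 (wild type) and 3.01 (knockout) on control diet and at 3.03 and 2.93 on high-fat diet. A second Tubb2b probe set (17286496) read 3.35, 3.16, 3.37 and 3.25 on the wild-type control, knockout control, wild-type high-fat and knockout high-fat arrays, with diet differences of 0.02 and 0.09, opposite in sign to those of the one reported.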
